A study of Homo sapiens with 38 samples.

Results

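The comparison described here sets H9 human embryonic stem cells after 8 h of beta-catenin induction (bcat 8 h) against the same line before induction (bcat 0 h). It rests on 2 libraries a group, 4 of the 38 libraries of the study, taken by their column names, and every gene of the table entered the test. H9 is an established human embryonic stem cell line, here with a stably integrated transgene for deltaN90 beta-catenin, a form that lacks its N-terminal degradation signal and is constitutively active, under control of doxycycline. The bcat 8 h cultures received doxycycline at 1 µg/ml in RPMI1640 medium with B27 supplement without vitamin A, on Matrigel. The bcat 0 h cultures carried the same transgene and are labelled as uninduced with no treatment. All cultures were seeded at confluence, and the line was kept in mTeSR1 before differentiation. No library of the medium alone, or of doxycycline on cells without the transgene, is part of the comparison, so induction, doxycycline, the change of medium and the elapsed time cannot be told apart. Whether the line is 1 clone is not given in the sources used here. The study also treated H9 cells with CHIR99021, an inhibitor of the kinase GSK3, at 10 µM and with recombinant Wnt3a at 240 ng/ml, each arm with its own 0 h cultures, and these arms are used below to show where the induced line differed.

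Beta-catenin carries the canonical WNT signal. Without a WNT ligand, a destruction complex built on AXIN and APC phosphorylates the N terminus of beta-catenin through CK1 and GSK3 and marks it for degradation, whereas a truncated form without those sites escapes this control and enters the nucleus, where it binds TCF and LEF factors at their target genes. Many of the targets are inhibitors of the same pathway (AXIN2, NKD1, NOTUM, RNF43, ZNRF3, DKK genes), and in human pluripotent cells WNT activity is known for inducing primitive streak genes such as T (brachyury).

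Total RNA was sequenced, and levels are given as CPM (counts scaled to a common library size), which are compared within a gene. The bcat 8 h libraries held 40.7 and 10.7 M estimated counts, against 4.44 and 9.26 M in the bcat 0 h libraries, where the 38 libraries of the study ranged between 2.45 and 65.7 M. Ribosomal RNA took 16.0% and 18.7% of the counts at 8 h, against 34.1% and 5.79% at 0 h. Bcat 0 h replicate 1 was thus both the shallowest of the 4 and the one with the most ribosomal RNA, and the part of depth and ribosomal RNA in the results was not tested beyond the fits without each library. Replicates correlated at r = 0.978 at 8 h and 0.95 at 0 h across genes. The labelled cell type was checked with 28 markers of primed pluripotency: none was at 0 in any of the 4 libraries, none was below 1 CPM in all 4, and their summed level was 10176 and 9956 CPM at 8 h, against 9704 and 10717 CPM at 0 h. In bulk RNA, fewer cells of a type and less RNA per cell cannot be told apart.

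Induction for 8 h was accompanied by changes in a large share of the transcriptome. The genes with the largest stable rises included the transcription factors ZIC1 and CDX2, the long intergenic RNA LINC01124 and the WNT pathway genes DKK4 and WNT10B, and those with the largest stable falls included STC1, DDIT4 and SLC16A3. At an adjusted p below 0.05 (edgeR quasi-likelihood test, Benjamini-Hochberg over 24304 genes), 4549 genes (18.7%) were called, 2602 higher at 8 h (10.7%) and 1947 lower (8.01%). The median log2 change of all tested genes was 0.052. Of the calls, 1033 higher and 848 lower genes changed by at least 2-fold, and 1101 higher and 672 lower genes were called with each of the 4 libraries left out in turn. Without bcat 0 h replicate 2 the total was 2926 calls, the largest loss among the 4, with 1819 higher and 1107 lower, and without bcat 8 h replicate 2 it was 2155 higher and 1290 lower. Among 15874 protein-coding genes 25% were called, 2308 of them higher and 1662 lower.

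**Figure D1:**
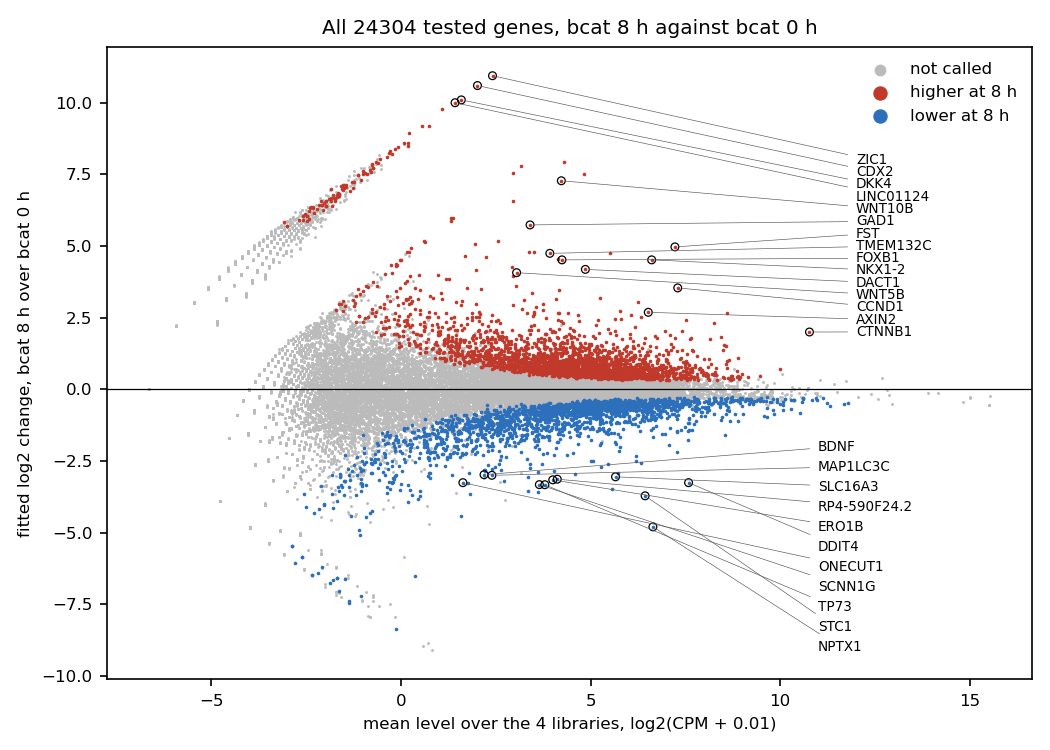
Fitted log2 change (vertical axis, bcat 8 h over bcat 0 h) against mean level over the 4 libraries (horizontal axis, log2 of CPM plus 0.01) for all 24304 tested genes, with 2602 genes called higher in red, 1947 called lower in blue and named genes ringed. Ringed genes with no count at 0 h (ZIC1, CDX2, DKK4, LINC01124) sit on the upper left edge, where the fitted value depends on the prior count of the model, and CTNNB1 is the ringed gene farthest to the right among those that rose.

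CTNNB1, the gene for beta-catenin, was the induced gene and was read first as a check of the labels. It stood at 2908 and 2693 CPM at 8 h, against 652 and 750.1 CPM at 0 h. Both 8 h libraries lay well above both 0 h libraries, as the labels state. The log2 change was 2.00 ± 0.10 (SE), adjusted p = 4.26e-14. In the other arms, whose cells carry no such transgene in the labels, the CTNNB1 change over the same 8 h was -0.43 with CHIR99021 and 0.085 with Wnt3a on the log2 scale, and the difference between the arms was 2.43 (adjusted p = 3.88e-12) and 1.91 (adjusted p = 8.82e-10). Reads of the construct and of the endogenous gene cannot be told apart in these gene totals. Of 27 tested genes for the destruction complex and partners of beta-catenin, 5 were higher, AXIN2 and CTNNB1 among them, and 2 lower, with a median log2 change of 0.15, and 3 were higher without bcat 8 h replicate 1, bcat 0 h replicate 1 or bcat 0 h replicate 2. The share of this list called in either direction, 25.9%, was near the 25% of protein-coding genes, against 18.7% of all tested genes. CSNK1E, a casein kinase of the pathway, fell to 80.6 and 75.9 CPM at 8 h, against 150.3 and 154 CPM at 0 h, a log2 change of -0.96 ± 0.13 (SE), adjusted p = 3.82e-06.

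Of 33 tested members of the list of feedback genes and direct targets, 18 were called higher, 1 lower and 14 neither, with a median log2 change of 1.94, where 10.7% of all tested genes were higher, 8.01% were lower and the median was 0.052. Between 15 and 18 members were higher when each of the 4 libraries was left out. With the 3 members that had no count at 0 h set to their lower bound (3 counts over both 0 h libraries), the median was 1.72. The summed level of the list was 1347 and 1097 CPM at 8 h, against 429 and 448 CPM at 0 h.

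Among the intracellular inhibitors, AXIN2, the scaffold of the destruction complex that limits its own pathway, was measured at 171 and 147 CPM at 8 h, against 24.1 and 25.2 CPM at 0 h. NKD1, which binds dishevelled and dampens the signal, was at 77.5 and 59.7 CPM at 8 h, against 8.53 and 7.17 CPM at 0 h. For both genes the 8 h libraries were several times above the 0 h libraries, which lay close to each other. The log2 change was 2.68 ± 0.21 (SE), adjusted p = 3.8e-10 for AXIN2. It was 3.18 ± 0.35 (SE), adjusted p = 9.79e-07 for NKD1.

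Among the inhibitors at the cell surface and outside the cell, 5 feedback members rose. RNF43, a ubiquitin ligase that removes Frizzled receptors, was at 39.6 and 25.3 CPM at 8 h, against 4.41 and 13.2 CPM at 0 h. Its 0 h libraries were apart by a wide margin but both were below the 8 h libraries. The log2 change of RNF43 was 1.72 ± 0.33 (SE), adjusted p = 0.000633, and 2.90 without bcat 0 h replicate 2. ZNRF3, its close relative, was at 40.4 and 31.4 CPM at 8 h, against 18.8 and 20.3 CPM at 0 h, with a log2 change of 0.88 ± 0.21 (SE), adjusted p = 0.0031, and lost its call without bcat 8 h replicate 1 (0.67, adjusted p = 0.0775). APCDD1, a membrane inhibitor of WNT, was at 8.68 and 7.07 CPM at 8 h, against 2.94 and 2.89 CPM at 0 h, with a log2 change of 1.47 ± 0.26 (SE), adjusted p = 0.000138. NOTUM, an enzyme that strips the lipid from WNT proteins, was at 10.2 and 4.81 CPM at 8 h, against 0.294 and 0.214 CPM at 0 h. It was close to undetected before induction, with 3 counts in all, and the ratio of counts was 38.6 (95% counting interval 13.1 to 188). Its fitted log2 change of 5.06 ± 0.56 (SE), adjusted p = 1.02e-07 went to 4.32 without bcat 8 h replicate 1. DKK4, a secreted LRP5 and LRP6 antagonist, was at 6.01 and 5.99 CPM at 8 h, against 0 and 0 CPM at 0 h. No count fell on DKK4 in either 0 h library, so it was at least 25.5-fold higher against a floor of 3 counts over both 0 h libraries (adjusted p = 1.27e-05).

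Of 15 tested TCF/LEF factors and corepressors, 4 were higher, 1 lower and 10 not called, where 10.7% of all tested genes were higher and 8.01% lower. LEF1 was at 22.8 and 16.6 CPM at 8 h, against 2.06 and 0.214 CPM at 0 h. TCF7 was at 38.5 and 23.6 CPM at 8 h, against 2.06 and 4.28 CPM at 0 h. Both bind beta-catenin directly, and for both the 8 h libraries lay clear of the 0 h libraries, which were themselves unequal. The log2 change of LEF1 was 4.78 ± 0.47 (SE), adjusted p = 3.38e-08, with 6.53 without bcat 0 h replicate 1 and 3.28 without bcat 0 h replicate 2. That of TCF7 was 3.14 ± 0.35 (SE), adjusted p = 1.76e-07, with 3.93 without bcat 0 h replicate 2. TLE3, a corepressor that occupies TCF factors in the absence of beta-catenin, was at 186 and 143 CPM at 8 h, against 33.5 and 54.0 CPM at 0 h, a log2 change of 1.87 ± 0.24 (SE), adjusted p = 3.07e-06. SP5, a zinc finger factor and a known direct WNT target, was at 66.2 and 47.7 CPM at 8 h, against 0 and 0.428 CPM at 0 h. It was all but absent before induction and abundant in both 8 h libraries, with a fitted log2 change of 7.50 ± 0.55 (SE), adjusted p = 1.29e-09. Without bcat 0 h replicate 2 no count was left at 0 h, and the fitted SP5 value of 13.38 then depends on the prior count. Its relative SP8 was at 37.3 and 24.6 CPM at 8 h, against 5.29 and 4.81 CPM at 0 h. Both 8 h libraries lay above the 0 h libraries, which were close to each other, with a log2 change of 2.66 ± 0.24 (SE), adjusted p = 2.39e-09.

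Promoters of the feedback genes were read from RefSeq (GRCh38.p14) to show the bases before the start site of genes that rose, 250 bases each, 5′ to 3′ on the strand of the gene. Capitals mark matches to CTTTGAA or CTTTGAT, the core that TCF and LEF factors are known to bind, searched on both strands, where the reverse matches read TTCAAAG and ATCAAAG. The motifs cannot overlap on the same strand. Of the 33 tested feedback members 19 had a promoter window, and 7 of those 19 (36.8%) held a match, against 2086 of all 35116 windows (5.94%) and 1977 of 27305 symbols with a window (7.24%). Among the 18 members called higher 11 had a window and 4 of those (36.4%) held a match, and all 4 are shown, followed by DACT1. Of the 12 named genes that rose most, 10 had a window, and DACT1 was 1 of 2 among them with a match. A gene with several start sites counted as matched if any of its windows held a match. Other windows of T and DACT1 held no match and are not shown. The windows are SP5 (chr2:170715087-170715336, plus strand), SP8 (chr7:20786887-20787136, minus strand), CDX2 (chr13:27969316-27969565, minus strand), T under its RefSeq symbol TBXT (chr6:166167852-166168101, minus strand) and DACT1 (chr14:58633811-58634060, plus strand).
SP5: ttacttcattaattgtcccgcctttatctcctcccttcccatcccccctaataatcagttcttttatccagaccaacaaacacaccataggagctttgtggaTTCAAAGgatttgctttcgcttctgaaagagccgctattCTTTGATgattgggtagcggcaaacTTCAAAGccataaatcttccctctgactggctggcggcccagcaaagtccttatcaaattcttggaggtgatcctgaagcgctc
SP8: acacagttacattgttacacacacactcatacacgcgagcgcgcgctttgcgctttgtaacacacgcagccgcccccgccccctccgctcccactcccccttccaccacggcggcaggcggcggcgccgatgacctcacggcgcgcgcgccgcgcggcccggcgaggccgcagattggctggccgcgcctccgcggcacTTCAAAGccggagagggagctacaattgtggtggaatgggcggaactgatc
CDX2: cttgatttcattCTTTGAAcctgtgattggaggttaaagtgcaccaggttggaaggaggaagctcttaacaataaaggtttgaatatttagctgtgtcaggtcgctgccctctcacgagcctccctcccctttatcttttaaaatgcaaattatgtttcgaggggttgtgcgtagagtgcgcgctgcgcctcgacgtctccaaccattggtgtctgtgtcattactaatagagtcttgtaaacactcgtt
T: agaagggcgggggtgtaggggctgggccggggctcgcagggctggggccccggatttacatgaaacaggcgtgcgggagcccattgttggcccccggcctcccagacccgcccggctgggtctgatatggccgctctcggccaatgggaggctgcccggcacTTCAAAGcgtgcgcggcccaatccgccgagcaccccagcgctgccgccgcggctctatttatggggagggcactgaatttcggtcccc
DACT1: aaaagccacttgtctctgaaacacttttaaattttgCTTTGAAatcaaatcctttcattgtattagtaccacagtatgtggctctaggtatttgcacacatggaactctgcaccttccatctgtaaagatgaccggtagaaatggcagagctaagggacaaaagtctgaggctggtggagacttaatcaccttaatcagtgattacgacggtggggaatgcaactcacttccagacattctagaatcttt
The SP5 window held 3 matches, a number reached by 7 of the 35116 windows (0.0199%), and the other windows shown held 1 match each. A match describes letters in the window and is not a measured binding site.

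CCND1, the G1 cyclin D1, was at 306 and 275 CPM at 8 h, against 23.2 and 26.2 CPM at 0 h. Both 8 h libraries were far above both 0 h libraries. The log2 change was 3.54 ± 0.19 (SE), adjusted p = 1.71e-13. TNFRSF19, a TNF receptor family member known as a WNT target, was at 39.5 and 26.8 CPM at 8 h, against 2.94 and 0.856 CPM at 0 h, and its log2 change of 4.53 ± 0.35 (SE), adjusted p = 3.15e-10 became 5.30 without bcat 0 h replicate 1 and 3.52 without bcat 0 h replicate 2. GBX2, a homeobox factor of the early embryo, was at 48.6 and 29.9 CPM at 8 h, against 0 and 0.214 CPM at 0 h. It was nearly absent at 0 h, with 2 counts in all, and the ratio of counts was 285 (95% counting interval 78.8 to 2354). The fitted GBX2 change of 7.94 ± 0.49 (SE), adjusted p = 1.79e-12 rests on those counts, and without bcat 0 h replicate 2 none was left (fitted value 12.85). CDX2, a caudal homeobox factor of posterior identity, was at 9.95 and 6.19 CPM at 8 h, against 0 and 0 CPM at 0 h. Neither 0 h library held a count, so CDX2 was at least 39.0-fold higher on the floor of 3 counts (adjusted p = 4.95e-06).

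T, which marks the primitive streak, was at 6.47 and 3.24 CPM at 8 h, against 0.294 and 0 CPM at 0 h. A single count fell on T before induction, and the ratio was 74.0 (95% counting interval 13.2 to 2934). The fitted log2 change of T was 5.98 ± 0.70 (SE), adjusted p = 3e-07, with 5.27 without bcat 8 h replicate 1, 9.96 without bcat 0 h replicate 1 and 4.16 without bcat 0 h replicate 2. The member that fell was EPHB3, an Eph receptor known as a WNT target in the intestine. It stood at 0.461 and 0.786 CPM at 8 h, against 4.12 and 8.77 CPM at 0 h, a log2 change of -3.65 ± 0.45 (SE), adjusted p = 5.37e-07, with -2.89 without bcat 0 h replicate 2. MYC, a proto-oncogene listed as a WNT target, was at 15.4 and 17.4 CPM at 8 h, against 22.6 and 21.7 CPM at 0 h. Its 8 h libraries were both below its 0 h libraries, and the change did not pass the test (log2 -0.44 ± 0.24 (SE), adjusted p = 0.227). FZD7, a Frizzled receptor, and WNT3, a ligand, complete the members called higher: FZD7 was at 266 and 208 CPM at 8 h, against 154 and 162 CPM at 0 h (log2 0.59 ± 0.14 (SE), adjusted p = 0.00381) and WNT3 was at 1.13 and 0.491 CPM at 8 h, against 0 and 0.214 CPM at 0 h (log2 2.55 ± 0.78 (SE), adjusted p = 0.0198). FZD7 lost its call without bcat 8 h replicate 1 (0.40 (adjusted p = 0.127)), and WNT3 lost it without bcat 8 h replicate 1 (1.62 (adjusted p = 0.378)), without bcat 0 h replicate 1 (2.11 (adjusted p = 0.0858)) and without bcat 0 h replicate 2 (fitted value 7.45 (adjusted p = 0.0965)). Besides MYC, the members that did not pass included DKK1, at 1.66 and 1.08 CPM at 8 h, against 0 and 0.535 CPM at 0 h, CDX1, at 0.896 and 0.590 CPM at 8 h, against 0 and 0.107 CPM at 0 h, and BAMBI, at 10.8 and 12.1 CPM at 8 h, against 7.35 and 9.20 CPM at 0 h, with adjusted p of 0.182, 0.057 and 0.199. CDX1 passed without the filter on low counts (adjusted p = 0.0307), with the default dispersion (0.0283) and with unscaled values (0.00312), and DKK1 with unscaled values (0.0357).

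**Figure D2:**
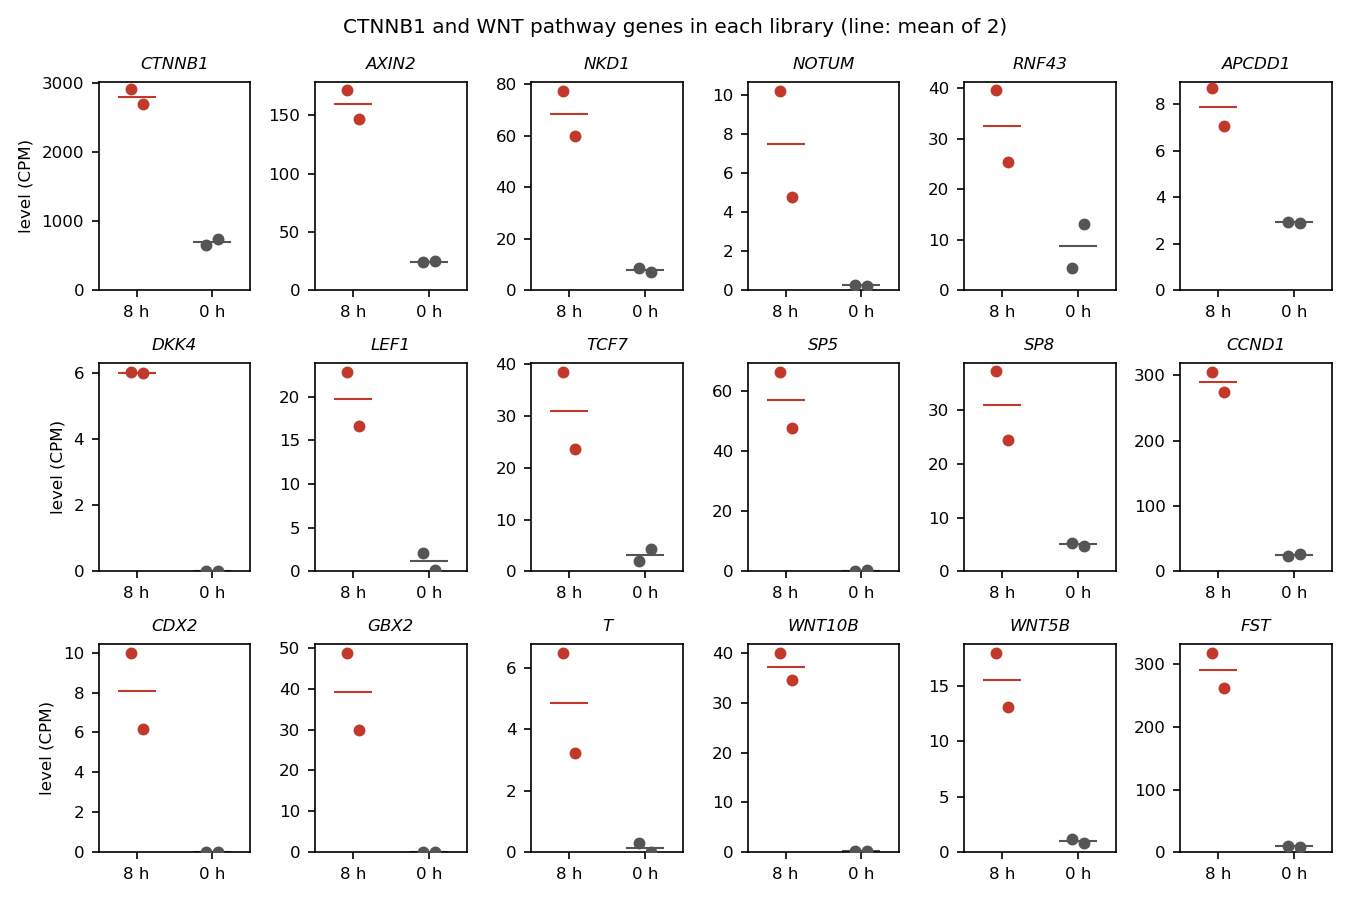
Level in CPM (vertical axis, starting at 0 in each panel) of CTNNB1, WNT pathway and target genes and FST in each library, bcat 8 h on the left in red and bcat 0 h on the right in grey, with a line at the mean of the 2 libraries. In every panel both 8 h points lie above both 0 h points.

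Ligands, receptors and secreted antagonists moved in both directions, where 10.7% of all tested genes were higher and 8.01% lower. Of 13 tested WNT ligand genes 4 were higher and 1 lower, of 26 Frizzled and coreceptor genes 8 were higher and 4 lower, and of 19 secreted antagonists 5 were higher and 5 lower. WNT10B, a canonical ligand, was at 39.9 and 34.6 CPM at 8 h, against 0.294 and 0.214 CPM at 0 h. It was close to undetected before induction, with 3 counts in all, and the ratio of counts was 165 (95% counting interval 56.3 to 799.7), adjusted p = 1.98e-10. WNT5B, a ligand of noncanonical WNT signalling, was at 18 and 13.1 CPM at 8 h, against 1.18 and 0.856 CPM at 0 h, a log2 change of 4.07 ± 0.29 (SE), adjusted p = 1.11e-11. FZD10, a Frizzled receptor, was at 11.9 and 6.29 CPM at 8 h, against 0 and 0.535 CPM at 0 h. Its 8 h libraries differed from each other but stood far above those at 0 h, with a log2 change of 4.62 ± 0.59 (SE), adjusted p = 2.92e-06. Without bcat 8 h replicate 1 the FZD10 change was 3.99, and without bcat 0 h replicate 2 no count was left at 0 h (fitted value 10.81). ROR2, a receptor for WNT5A, was at 19.6 and 15.6 CPM at 8 h, against 4.70 and 6.95 CPM at 0 h, a log2 change of 1.52 ± 0.20 (SE), adjusted p = 1.12e-06. LGR4, the R-spondin receptor, fell to 67.0 and 65.7 CPM at 8 h, against 137 and 143 CPM at 0 h. Its log2 change was -1.08 ± 0.14 (SE), adjusted p = 1.46e-06. SFRP1, a secreted WNT-binding protein, was at 294 and 239 CPM at 8 h, against 477 and 504 CPM at 0 h. Both of these genes were lower in both 8 h libraries, and the log2 change of SFRP1 was -0.88 ± 0.12 (SE), adjusted p = 2.71e-06. SHISA2, of a family known in Xenopus for retaining Frizzled and FGF receptors inside the cell, was at 3.33 and 4.42 CPM at 8 h, against 19.4 and 25 CPM at 0 h, a log2 change of -2.61 ± 0.36 (SE), adjusted p = 9.6e-06. The counts of Frizzled and antagonist members depended on single libraries: without bcat 8 h replicate 1 the Frizzled list had 5 higher and 4 lower and the antagonists 4 and 3, and without bcat 0 h replicate 2 the Frizzled list had 5 and 2, the antagonists 4 and 3 and the ligands 2 and 1.

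The genes with the largest stable rise were chosen over the whole table by size, level, lack of overlap between the groups and stability to the loss of any library. Besides CDX2, DKK4, WNT10B and WNT5B, they were 8 genes. ZIC1, a zinc finger factor of neural and border tissue, was at 11.5 and 9.73 CPM at 8 h, against 0 and 0 CPM at 0 h. LINC01124, a long intergenic RNA, was at 6.58 and 4.13 CPM at 8 h, against 0 and 0 CPM at 0 h. Neither had a count at 0 h, which makes ZIC1 at least 47.4-fold and LINC01124 at least 25.8-fold higher on the floor of 3 counts over both libraries. FST, follistatin, a secreted ACTIVIN antagonist, was at 317 and 262 CPM at 8 h, against 10.9 and 8.45 CPM at 0 h, a log2 change of 4.97 ± 0.21 (SE), adjusted p = 6.33e-16. NKX1-2, a homeobox factor, was at 194 and 182 CPM at 8 h, against 6.47 and 9.09 CPM at 0 h, a log2 change of 4.51 ± 0.24 (SE), adjusted p = 1.34e-13. The libraries of each group lay close together for both, and the lack of overlap between groups was set by the choice. DACT1, a dishevelled-binding regulator of WNT and NODAL signalling, was at 55.8 and 54.6 CPM at 8 h, against 2.65 and 3.21 CPM at 0 h, a log2 change of 4.18 ± 0.19 (SE), adjusted p = 6.33e-16. FOXB1, a forkhead factor, was at 42.1 and 30.1 CPM at 8 h, against 2.35 and 1.28 CPM at 0 h, a log2 change of 4.51 ± 0.32 (SE), adjusted p = 1.01e-11. GAD1, glutamate decarboxylase, was nearly absent at 0 h. It was at 23.4 and 18.2 CPM at 8 h, against 0.294 and 0.428 CPM at 0 h, a log2 change of 5.73 ± 0.38 (SE), adjusted p = 3.33e-12. TMEM132C, a membrane protein gene, was at 30.2 and 28.5 CPM at 8 h, against 0.882 and 1.18 CPM at 0 h, a log2 change of 4.74 ± 0.27 (SE), adjusted p = 1.71e-13.

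The genes with the largest stable fall were chosen the same way, so both 8 h libraries below both 0 h libraries was a condition of the choice. That order held for 22.4% of all tested genes. NPTX1, a secreted neuronal pentraxin, fell to 5.27 and 9.24 CPM at 8 h, against 186 and 199 CPM at 0 h, a log2 change of -4.80 ± 0.57 (SE), adjusted p = 4.03e-06. STC1, stanniocalcin, a glycoprotein gene known to respond to hypoxia, fell to 13.0 and 11.2 CPM at 8 h, against 157 and 165 CPM at 0 h, a log2 change of -3.72 ± 0.20 (SE), adjusted p = 4.67e-14. In these genes both 8 h libraries were far below both 0 h libraries. DDIT4, an inhibitor of mTORC1, fell to 41.6 and 30.4 CPM at 8 h, against 318 and 377 CPM at 0 h, a log2 change of -3.26 ± 0.30 (SE), adjusted p = 1.08e-07. SLC16A3, a lactate exporter, fell to 12.9 and 8.06 CPM at 8 h, against 78.5 and 102 CPM at 0 h, a log2 change of -3.06 ± 0.23 (SE), adjusted p = 2.06e-10. TP73, of the p53 family, fell to 3.02 and 1.77 CPM at 8 h, against 24.1 and 26.5 CPM at 0 h, a log2 change of -3.33 ± 0.31 (SE), adjusted p = 4.01e-09. That no 8 h library reached the level of a 0 h library in them follows from the choice. BDNF, a neurotrophin, fell to 0.844 and 1.38 CPM at 8 h, against 7.65 and 8.35 CPM at 0 h, a log2 change of -2.98 ± 0.41 (SE), adjusted p = 2.92e-06. Further genes were SCNN1G (a sodium channel subunit, -3.33), ONECUT1 (a transcription factor, -3.26), ERO1B (an oxidase of the endoplasmic reticulum, -3.16), RP4-590F24.2 (-3.14) and MAP1LC3C (an autophagy protein, -3.00), given here as log2 changes. Most of these falls were shared with CHIR99021, where all genes named in this paragraph but ERO1B (-0.57) and MAP1LC3C (-1.14) were called lower. The log2 change there was -3.49 for STC1, -3.00 for SLC16A3 and -2.40 for DDIT4. With Wnt3a, NPTX1 (-3.09), DDIT4 (-2.22), STC1 (-1.89) and SLC16A3 (-1.02) were called lower. The others named here, with ERO1B at -0.36, did not pass the test with Wnt3a.

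The core pluripotency factors stayed abundant over the 8 h. Counts of markers in this paragraph stand beside 10.7% higher and 8.01% lower among all tested genes. POU5F1 was at 807 and 848 CPM at 8 h, against 995 and 1237 CPM at 0 h, a log2 change of -0.43 ± 0.11 (SE), adjusted p = 0.00335. NANOG was at 49.0 and 71.8 CPM at 8 h, against 55.9 and 72.3 CPM at 0 h, and SOX2 was at 182 and 196 CPM at 8 h, against 216 and 247 CPM at 0 h. The NANOG libraries overlapped between the groups, those of POU5F1 and SOX2 did not. Neither NANOG (log2 -0.12 ± 0.24 (SE), adjusted p = 0.802) nor SOX2 (log2 -0.30 ± 0.15 (SE), adjusted p = 0.186) passed the test, and POU5F1 lost its call without bcat 0 h replicate 2 (log2 -0.27 (adjusted p = 0.162)). LIN28A, an RNA-binding protein of pluripotent cells, was at 1749.5 and 1575 CPM at 8 h, against 1611 and 1786 CPM at 0 h, with overlapping groups (log2 -0.031 ± 0.10 (SE), adjusted p = 0.89). Of the 28 primed pluripotency markers 3 were higher and 10 lower, with a median log2 change of -0.23; without bcat 8 h replicate 1 the counts were 3 and 6, and without bcat 0 h replicate 2 they were 2 and 4.

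Single markers moved more. PRDM14, a repressor of differentiation genes, fell to 6.68 and 7.17 CPM at 8 h, against 19.996 and 25.9 CPM at 0 h, a log2 change of -1.76 ± 0.22 (SE), adjusted p = 5.79e-07. TERF1, a telomere protein, fell to 220.2 and 226 CPM at 8 h, against 451 and 492 CPM at 0 h, a log2 change of -1.08 ± 0.13 (SE), adjusted p = 7.41e-07. L1TD1, an RNA-binding protein derived from a retrotransposon, rose to 469.6 and 567 CPM at 8 h, against 175 and 227 CPM at 0 h, a log2 change of 1.36 ± 0.19 (SE), adjusted p = 7.63e-06. The 8 h and 0 h libraries of these genes did not overlap, as in 29.2% of all tested genes with both 8 h libraries above and 22.4% with both below. Of 13 naive pluripotency genes 2 were higher and 2 lower, where 10.7% of all tested genes were higher and 8.01% lower. Among them TFAP2C, a transcription factor also of trophoblast, fell to 6.86 and 6.29 CPM at 8 h, against 27.9 and 26.4 CPM at 0 h (log2 -2.04 ± 0.24 (SE), adjusted p = 3.4e-07). KLF5, a Krüppel-like factor, rose to 21.0 and 19.5 CPM at 8 h, against 1.18 and 2.35 CPM at 0 h (log2 3.35 ± 0.43 (SE), adjusted p = 1.52e-06), with 4.10 without bcat 0 h replicate 2.

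Several primitive streak genes were near zero before induction, while 19 of the 28 tested list members had a count at 0 h. Calls in the list stand beside 10.7% higher and 8.01% lower among all tested genes. Of 28 tested members of the primitive streak and mesendoderm list 12 were higher and 3 lower, with a median log2 change of 2.71; 9 members had no count at 0 h, and MSGN1 and GATA6 had none in any of the 4 libraries. With 7 of those members at their lower bound and MSGN1 and GATA6 left out, the median was 1.90. The summed level was 400.2 and 331 CPM at 8 h, against 25 and 28.4 CPM at 0 h. Most of the sum at 8 h came from members not named in this paragraph. The counts were 7 higher and 1 lower without bcat 8 h replicate 1, and 5 and 0 without bcat 0 h replicate 2. NODAL, the ligand that patterns the streak, was at 19.3 and 24.9 CPM at 8 h, against 0.294 and 0.963 CPM at 0 h, a log2 change of 4.80 ± 0.43 (SE), adjusted p = 3.36e-09, with 6.19 without bcat 0 h replicate 2. EOMES, a T-box factor of mesendoderm, was at 18.2 and 12.4 CPM at 8 h, against 0 and 0.107 CPM at 0 h. With 1 count at 0 h the EOMES ratio was 217 (95% counting interval 38.8 to 8566), the fitted log2 change was 7.55 ± 1.11 (SE), adjusted p = 4.82e-05, and without bcat 0 h replicate 2 no count was left (fitted value 11.51). MIXL1, a homeobox factor of mesendoderm, was at 6.58 and 5.90 CPM at 8 h, against 0 and 0.749 CPM at 0 h. Its 8 h libraries were alike and far above those at 0 h, with a log2 change of 3.53 ± 0.89 (SE), adjusted p = 0.00779, but it lost the call without bcat 0 h replicate 2 (adjusted p = 0.0853, fitted value 10.19).

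Markers of other cell types that the cultures could hold differed between lists in level and direction. Their counts stand beside 10.7% higher and 8.01% lower among all tested genes. Neural crest and border genes had 7 of 17 tested members higher and 1 lower, with a summed level of 186 and 160.4 CPM at 8 h, against 82.9 and 78.8 CPM at 0 h. Neural ectoderm genes had 4 of 19 higher and 2 lower, with 136 and 100.2 CPM at 8 h, against 51.8 and 55.2 CPM at 0 h, and PAX6, SIX6 and NR2F1 were at 0 in all 4 libraries. Both lists contain ZIC1 and GBX2. Definitive endoderm genes had 4 of 18 higher and 3 lower, with 95 and 81.2 CPM at 8 h, against 90.9 and 106 CPM at 0 h, and 2 were higher without bcat 8 h replicate 1, bcat 0 h replicate 1 or bcat 0 h replicate 2. Endothelial and blood genes had 1 of 17 higher and 4 lower (2 lower without bcat 8 h replicate 2), with 158 and 189.6 CPM at 8 h, against 382 and 402 CPM at 0 h. Both 8 h libraries were below both 0 h libraries in the endothelial and blood sum, to which KDR, the VEGF receptor, contributed 72.6 and 91.6 CPM at 8 h and 195 and 258 CPM at 0 h (log2 -1.48 ± 0.24 (SE), adjusted p = 7.21e-05). Lateral and cardiac mesoderm genes, with a share near that of all genes (10.7% higher), had 2 of 19 higher (1 without bcat 8 h replicate 1 or bcat 0 h replicate 1, and 0 without bcat 0 h replicate 2) and 0 lower by edgeR (0 at an unadjusted p below 0.05, 0 with DESeq2), with 15.5 and 14.3 CPM at 8 h, against 8.53 and 6.63 CPM at 0 h. Amnion and trophoblast genes, with shares near those of all genes (10.7% higher and 8.01% lower), had 2 of 18 higher and 1 lower. Their sum was 422 and 463 CPM at 8 h, against 431 and 503 CPM at 0 h. The part of other cell types in the results was not tested.

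**Figure D3:**
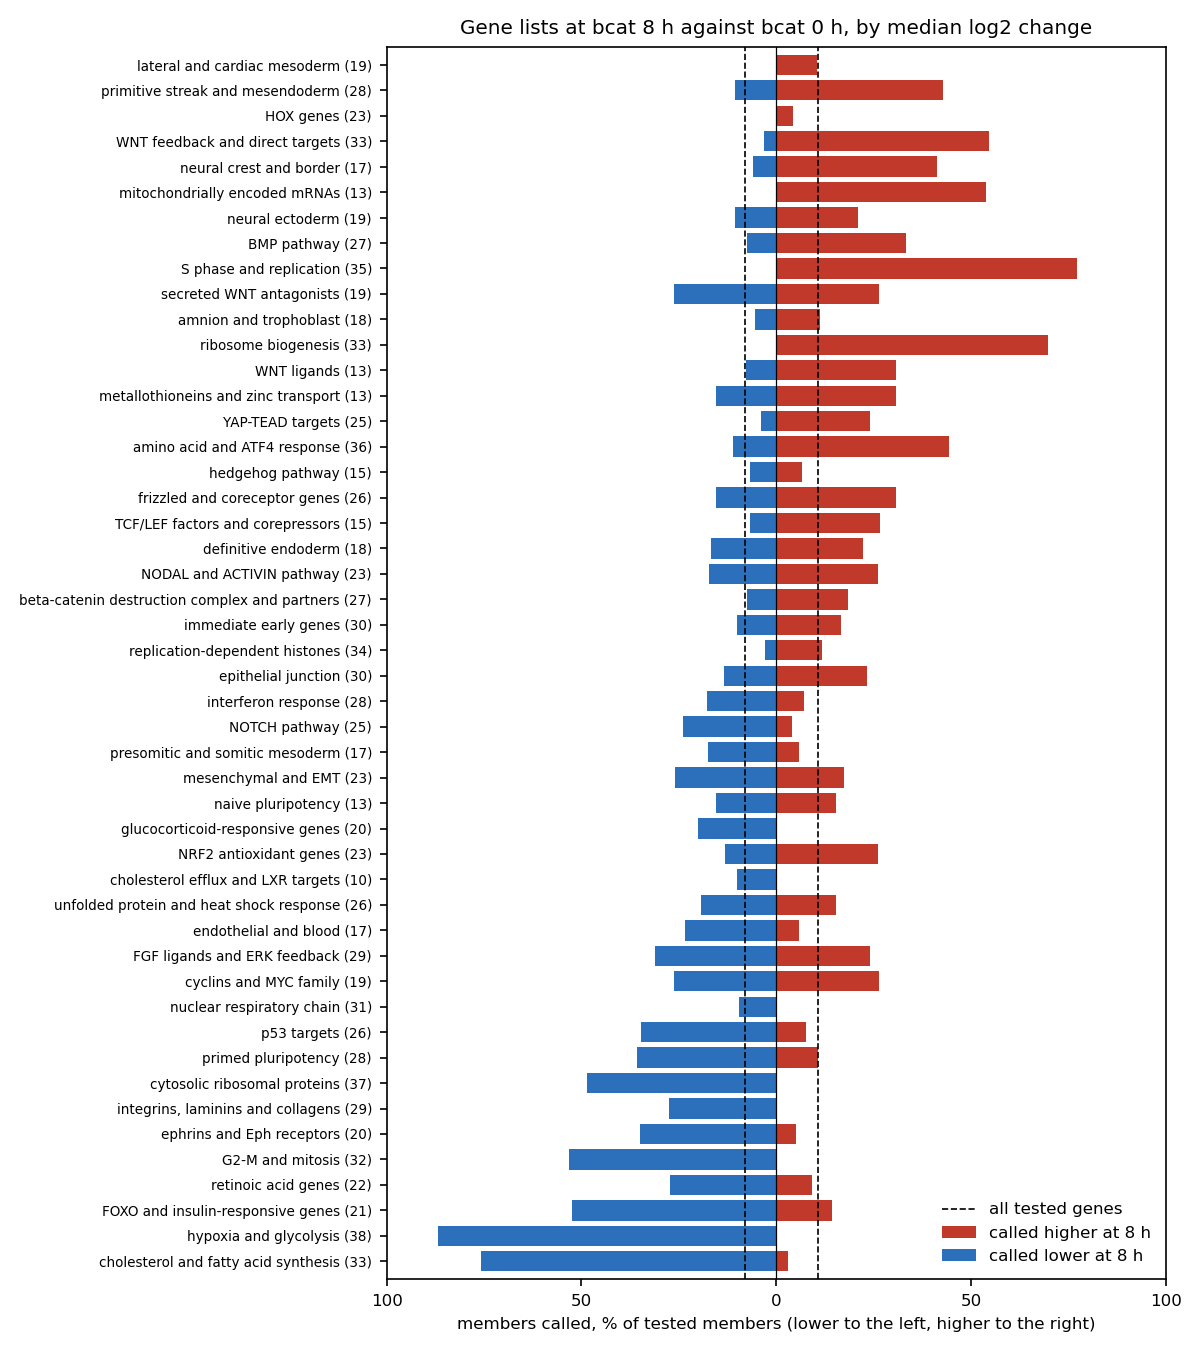
Share of tested members called higher (red, to the right) and lower (blue, to the left) at bcat 8 h against bcat 0 h, in percent, for 48 gene lists ordered from the highest fitted median log2 change at the top to the lowest at the bottom, with the number of tested members in brackets. Dashed lines mark the shares over all tested genes, 10.7% higher and 8.01% lower; WNT feedback, S phase and ribosome biogenesis genes reach farthest to the right, hypoxia and sterol genes farthest to the left.

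Genes of other signalling pathways moved at the same time, where 10.7% of all tested genes were higher and 8.01% lower. In the BMP list 9 of 27 members were higher and 2 lower (3 and 0 without bcat 0 h replicate 2). ID3, an inhibitor of bHLH factors and a BMP response gene, was at 39.0 and 36.6 CPM at 8 h, against 8.23 and 9.95 CPM at 0 h, a log2 change of 2.02 ± 0.16 (SE), adjusted p = 2.44e-10. ID2, from the same family, was at 119 and 107 CPM at 8 h, against 52.6 and 60.4 CPM at 0 h, a log2 change of 0.99 ± 0.19 (SE), adjusted p = 0.000276. Both groups were tight and well apart for both genes. In the NOTCH list 1 of 25 members was higher and 6 were lower. LFNG, which glycosylates NOTCH receptors, fell to 9.39 and 6.48 CPM at 8 h, against 39.1 and 37.2 CPM at 0 h, a log2 change of -2.21 ± 0.21 (SE), adjusted p = 6.06e-09. HES1, a NOTCH-induced repressor, fell to 9.14 and 5.80 CPM at 8 h, against 21.2 and 32.7 CPM at 0 h, a log2 change of -1.83 ± 0.25 (SE), adjusted p = 2.52e-06. The 8 h libraries of both genes were all below those at 0 h. DLL3, a NOTCH ligand family member, was at 5.55 and 4.42 CPM at 8 h, against 13.8 and 23.9 CPM at 0 h, a log2 change of -1.95 ± 0.27 (SE), adjusted p = 4.18e-06. Of 25 YAP-TEAD targets 6 were higher and 1 lower. AMOTL2 and AMOTL1 encode angiomotin-like proteins that hold YAP in the cytoplasm. AMOTL2 was at 88.9 and 81.6 CPM at 8 h, against 15.6 and 15.6 CPM at 0 h, a log2 change of 2.45 ± 0.23 (SE), adjusted p = 1.74e-08, and AMOTL1 had a log2 change of 2.10 ± 0.17 (SE), adjusted p = 1.67e-10.

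Lists in this paragraph are set beside 10.7% higher and 8.01% lower among all tested genes. Of 35 tested S phase and replication genes 27 were higher and 0 lower by edgeR (1 lower at an unadjusted p below 0.05, 1 with DESeq2). Their median log2 change was 0.83, and the summed level was 3886 and 3913 CPM at 8 h, against 2260.2 and 2576 CPM at 0 h. UHRF1, which keeps DNA methylation through replication, was at 100.3 and 90.8 CPM at 8 h, against 12.9 and 15.4 CPM at 0 h, a log2 change of 2.72 ± 0.21 (SE), adjusted p = 1.69e-10. PCNA, the sliding clamp, was at 228 and 266 CPM at 8 h, against 85.6 and 102 CPM at 0 h, a log2 change of 1.38 ± 0.17 (SE), adjusted p = 7.41e-07. E2F1, an activator of S phase genes, was at 46.0 and 37.7 CPM at 8 h, against 13.2 and 18 CPM at 0 h, a log2 change of 1.38 ± 0.17 (SE), adjusted p = 3.81e-07. The 8 h libraries of all of them stood above those at 0 h. CCNE1, the cyclin of S phase entry, was at 27.9 and 32.4 CPM at 8 h, against 6.76 and 14.9 CPM at 0 h (log2 1.34 ± 0.24 (SE), adjusted p = 0.000103), with 2.15 without bcat 0 h replicate 2. Of 32 G2-M and mitosis genes 0 were higher by edgeR (0 at an unadjusted p below 0.05, 0 with DESeq2) and 17 lower, with a median of -0.45; the summed level was 3331 and 3608 CPM at 8 h, against 4646 and 5013 CPM at 0 h. TOP2A, topoisomerase II alpha, was at 345 and 393 CPM at 8 h, against 609 and 718 CPM at 0 h, a log2 change of -0.85 ± 0.12 (SE), adjusted p = 8.9e-06. AURKA, a mitotic kinase, was at 56.3 and 57.7 CPM at 8 h, against 106 and 116 CPM at 0 h, a log2 change of -0.97 ± 0.12 (SE), adjusted p = 8.25e-07. For both, the groups were apart and the falls were modest in size. CDKN1A, the p21 inhibitor of cyclin-dependent kinases, fell to 2.48 and 1.67 CPM at 8 h, against 8.23 and 8.99 CPM at 0 h, a log2 change of -1.97 ± 0.29 (SE), adjusted p = 1.06e-05. Of 26 p53 target genes, to which it belongs, 2 were higher and 9 lower. MYCN rose to 42.0 and 39.8 CPM at 8 h, against 27.1 and 27.8 CPM at 0 h, a log2 change of 0.58 ± 0.14 (SE), adjusted p = 0.00256.

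Of 33 ribosome biogenesis genes 23 were higher and 0 lower by edgeR (1 lower at an unadjusted p below 0.05, 2 with DESeq2), with a median log2 change of 0.69. Over all tested genes the shares were 10.7% higher and 8.01% lower. NOP56, a core protein of box C/D snoRNPs, was at 252 and 268 CPM at 8 h, against 108 and 113 CPM at 0 h, a log2 change of 1.23 ± 0.11 (SE), adjusted p = 1.81e-09. RRS1, an assembly factor of the large subunit, was at 31.8 and 25.8 CPM at 8 h, against 9.70 and 9.31 CPM at 0 h, a log2 change of 1.62 ± 0.18 (SE), adjusted p = 1.58e-07. Both genes stood clearly higher in each 8 h library. Of 37 cytosolic ribosomal protein genes 0 were higher by edgeR (0 at an unadjusted p below 0.05, 0 with DESeq2) and 18 lower, with a median of -0.32. The count of lower ribosomal protein genes depended on single libraries, with 3 without bcat 8 h replicate 1, 5 without bcat 8 h replicate 2 and 0 without bcat 0 h replicate 2, and it was 31 with DESeq2 size factors. All 7 of the 13 mitochondrially encoded mRNAs that were called were higher, but the count was 1 without bcat 8 h replicate 1, 11 without bcat 8 h replicate 2, 4 without bcat 0 h replicate 1 and 1 without bcat 0 h replicate 2. None of the 13 was called when only the bcat arm was fitted, with or without the replicate block. With only the 4 libraries of the comparison fitted, none was called either. Their summed level was 2103 and 744 CPM at 8 h, against 865 and 604 CPM at 0 h, and bcat 8 h replicate 1 stood apart from the other 3 libraries.

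**Figure D4:**
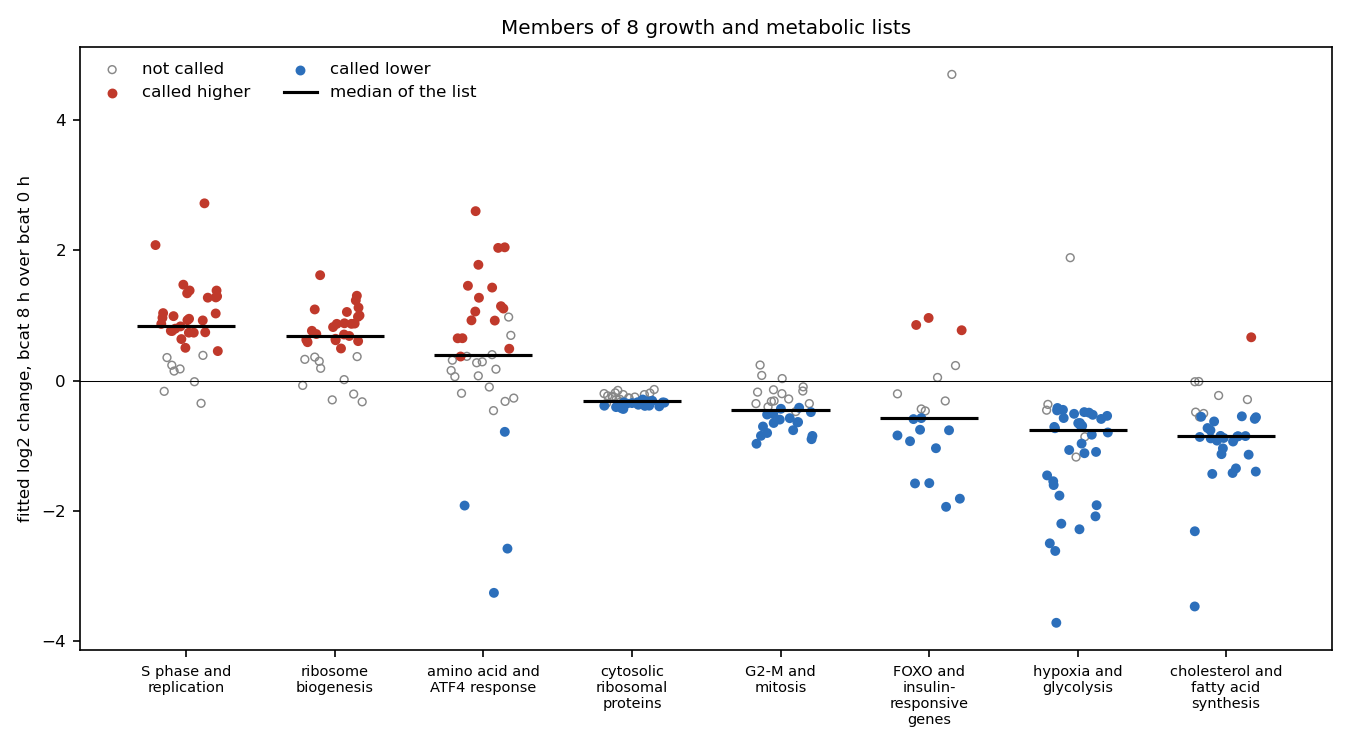
Fitted log2 change (vertical axis, bcat 8 h over bcat 0 h) of every tested member of 8 growth and metabolic lists, with filled red points called higher, filled blue points called lower, open points not called and a black line at the median of the list. S phase, ribosome biogenesis and amino acid lists lie mostly above 0, with medians between 0.39 and 0.83, and the hypoxia and cholesterol lists lie mostly below, with medians of -0.76 and -0.85.

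Of 38 hypoxia and glycolysis genes 33 were lower and 0 higher by edgeR (1 higher at an unadjusted p below 0.05, 0 with DESeq2), where 8.01% of all tested genes were lower and 10.7% higher. The median log2 change of the list was -0.76. Its summed level was 13401 and 13495 CPM at 8 h, against 19105 and 22969 CPM at 0 h. HK2, hexokinase 2, was at 59.3 and 52.3 CPM at 8 h, against 231 and 280.4 CPM at 0 h, a log2 change of -2.20 ± 0.16 (SE), adjusted p = 4.7e-11. PFKFB4, which sets the level of a glycolytic activator, was at 13.8 and 10.5 CPM at 8 h, against 72.0 and 79.7 CPM at 0 h, a log2 change of -2.62 ± 0.21 (SE), adjusted p = 1.67e-10. BNIP3, a mitophagy receptor induced by hypoxia, was at 87.9 and 85.6 CPM at 8 h, against 254 and 334 CPM at 0 h, a log2 change of -1.77 ± 0.15 (SE), adjusted p = 4.88e-10. No 8 h library reached a 0 h library in these genes. SLC2A1, the glucose transporter GLUT1, was at 191 and 178 CPM at 8 h, against 474 and 645 CPM at 0 h, a log2 change of -1.60 ± 0.25 (SE), adjusted p = 6.01e-05. GAPDH, often taken as a housekeeping gene, was lower, at 2937 and 2997 CPM at 8 h, against 3859 and 4437 CPM at 0 h, a log2 change of -0.48 ± 0.10 (SE), adjusted p = 0.000947.

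Of 33 cholesterol and fatty acid synthesis genes 25 were lower and 1 higher, with a median log2 change of -0.85; between 23 and 25 were lower when each of the 4 libraries was left out. Among all tested genes 8.01% were lower and 10.7% higher. In the other arms, 30 of the 33 genes were lower with CHIR99021 and 24 with Wnt3a. The summed level of the list in the induced line was 3153 and 2916 CPM at 8 h, against 5212 and 5744 CPM at 0 h. STARD4, a cholesterol carrier, was at 25.7 and 24.1 CPM at 8 h, against 106 and 140.3 CPM at 0 h, a log2 change of -2.31 ± 0.16 (SE), adjusted p = 5.9e-12. HMGCS1, which makes HMG-CoA for the mevalonate pathway, was at 92.2 and 87.8 CPM at 8 h, against 217 and 268 CPM at 0 h, a log2 change of -1.43 ± 0.13 (SE), adjusted p = 1.78e-09. Both 8 h libraries of each gene agreed closely and lay below the 0 h libraries, of which replicate 2 was the higher. FDFT1, squalene synthase, was at 114 and 109.9 CPM at 8 h, against 256 and 339.9 CPM at 0 h, a log2 change of -1.42 ± 0.14 (SE), adjusted p = 5.39e-09.

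Several amino acid transporters rose. The lists here are read beside 10.7% higher and 8.01% lower among all tested genes. Of 36 amino acid and ATF4 response genes 16 were higher and 4 lower, with a median log2 change of 0.39. SLC7A11, the cystine importer, was at 110.2 and 120.2 CPM at 8 h, against 14.1 and 21.9 CPM at 0 h, a log2 change of 2.60 ± 0.21 (SE), adjusted p = 2.44e-10. SLC7A5, an importer of large neutral amino acids, was at 333 and 217 CPM at 8 h, against 64.4 and 69.3 CPM at 0 h, a log2 change of 2.04 ± 0.24 (SE), adjusted p = 1.14e-06. SLC1A5, a glutamine transporter, was at 225 and 199.9 CPM at 8 h, against 77.9 and 77.2 CPM at 0 h, a log2 change of 1.46 ± 0.11 (SE), adjusted p = 8.59e-11. Each stood higher in both 8 h libraries. The members that fell included DDIT4, described above, and VLDLR, a lipoprotein receptor, at 25.2 and 20.9 CPM at 8 h, against 137 and 141 CPM at 0 h (log2 -2.58 ± 0.16 (SE), adjusted p = 1.69e-12). Of 21 FOXO and insulin-responsive genes 11 were lower and 3 higher, with 9 lower and 0 higher without bcat 8 h replicate 1, 6 and 3 without bcat 8 h replicate 2, and 6 and 2 without bcat 0 h replicate 2. TXNIP, which binds thioredoxin and limits glucose uptake, was at 56.8 and 54.7 CPM at 8 h, against 212 and 215 CPM at 0 h, a log2 change of -1.94 ± 0.23 (SE), adjusted p = 1.33e-06. FOXO1 itself was at 23.2 and 21.3 CPM at 8 h, against 62.6 and 70.3 CPM at 0 h, a log2 change of -1.58 ± 0.14 (SE), adjusted p = 2.1e-09. In both genes the 8 h libraries were alike and far below those at 0 h.

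To show where the induced line differed from the ligand and the inhibitor at the same time, its change over 8 h was tested against the change of each other arm, every arm measured against its own 0 h libraries. The change differed from that with CHIR99021 for 656 genes (2.7%), 506 with a higher value in the induced line (2.08%) and 150 with a lower one (0.617%), and from that with Wnt3a for 1360 genes (5.6%), 723 higher (2.97%) and 637 lower (2.62%). With DESeq2 size factors the split from CHIR99021 was 349 higher and 271 lower, and that from Wnt3a 834 and 884. The Wnt3a split turned with single libraries, at 438 higher and 871 lower without Wnt3a 0 h replicate 2, 809 and 370 without Wnt3a 0 h replicate 1, 609 and 614 without bcat 0 h replicate 1, and 530 and 295 without bcat 0 h replicate 2. The totals also depended on single libraries: the first was 320 without bcat 8 h replicate 1, 334 without bcat 0 h replicate 1, 239 and 400 without CHIR 8 h replicates 1 and 2, and 306 and 279 without CHIR 0 h replicates 1 and 2. The second was 764 without bcat 8 h replicate 1, 825 without bcat 0 h replicate 2, and 663 and 863 without Wnt3a 8 h replicates 1 and 2. On their own, 5075 genes (20.9%) were called with CHIR99021 and 839 (3.45%, of which 2.28% of tested genes higher) with Wnt3a. The arms also differed in library content. Mitochondrial genes took 1.55% and 0.701% of the counts at bcat 8 h and 1.17% and 0.369% at bcat 0 h. They took 14.7% and 11.8% at CHIR 8 h and 7.68% and 8.01% at CHIR 0 h. The shares were 7.10% and 6.77% at Wnt3a 8 h and 7.72% and 6.86% at Wnt3a 0 h. Without ribosomal RNA and mitochondrial genes, 708 genes differed from CHIR99021 and 1469 from Wnt3a. The part of library content was not tested further.

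Among the genes described above, CCND1 rose more in the induced line (3.54) than with CHIR99021 (2.03, adjusted p of the difference = 0.000771) or Wnt3a (1.59, adjusted p = 1.86e-05). ID3 rose more than with CHIR99021 (-0.16, adjusted p = 1.05e-07) or Wnt3a (0.60, adjusted p = 0.000118). SP8 rose more than with CHIR99021 (0.64, adjusted p = 0.000242). UHRF1 rose more than with CHIR99021 (1.05, adjusted p = 0.000615) or Wnt3a (0.11, adjusted p = 1.01e-06). In the Wnt3a arm UHRF1 stood at 86.7 and 96.9 CPM at 8 h, against 73.4 and 93.9 CPM at 0 h, so its levels at 8 h were close to those of the induced line and the arms were apart at 0 h. L1TD1, which rose in the induced line, had a log2 change of -0.15 with CHIR99021 (adjusted p of the difference = 0.00177) and 0.011 with Wnt3a (adjusted p = 0.00237). MYCN, which also rose there, had a log2 change of -1.08 with CHIR99021 (adjusted p = 2.09e-06) and -0.43 with Wnt3a (adjusted p = 0.00108). GBX2 rose more (7.94) than with CHIR99021 (3.88, adjusted p = 0.0039) or Wnt3a (2.34, adjusted p = 3.2e-05), on 2 counts at 0 h in the induced line. APCDD1 went the other way: its rise of 1.47 was smaller than the 3.42 with CHIR99021 (adjusted p = 0.00191) and the 3.50 with Wnt3a (adjusted p = 0.00100). Against CHIR99021, rises were also smaller for RNF43 (1.72 against 3.90, adjusted p = 0.0142), DACT1 (4.18 against 5.76, adjusted p = 0.00184), FST (4.97 against 6.04, adjusted p = 0.0316) and SLC7A11 (2.60 against 4.13, adjusted p = 0.00189). Other genes described above also differed and are not listed here. The APCDD1 difference from CHIR99021 lost its call without bcat 0 h replicate 2 (-1.97, adjusted p = 0.0619). TXNIP fell by 1.94 in the induced line, while its log2 change was 0.37 with CHIR99021 and 0.37 with Wnt3a (adjusted p of the differences 0.00018 and 0.000162). LFNG fell by 2.21 in the induced line, more than the -0.72 with CHIR99021 (adjusted p = 0.00292) and the -0.31 with Wnt3a (adjusted p = 0.000162).

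For whole lists the arms are set side by side, without a test. The summed level of the S phase list was 4084 and 3952 CPM at 8 h, against 3309 and 3423 CPM at 0 h with CHIR99021, and 4338 and 4463 CPM at 8 h, against 3311 and 4156 CPM at 0 h with Wnt3a, so the 0 h libraries of the induced line, given above, were the lowest of the 3 arms. The primitive streak sum was 609 and 550.0 CPM at 8 h, against 24.3 and 23.7 CPM at 0 h with CHIR99021, and 406 and 387 CPM at 8 h, against 31.0 and 24.9 CPM at 0 h with Wnt3a. The induced line and the Wnt3a cultures thus reached a like sum, below that with CHIR99021. A few abundant members can set such a sum, so it does not show that the same members rose. The hypoxia and glycolysis sum was 13176 and 13124 CPM at 8 h, against 19319 and 19021 CPM at 0 h with CHIR99021, and 13093 and 12853 CPM at 8 h, against 10763 and 13608 CPM at 0 h with Wnt3a. At 8 h the 3 arms were close to each other in this sum, and at 0 h the Wnt3a arm was the lower one.

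**Figure D5:**
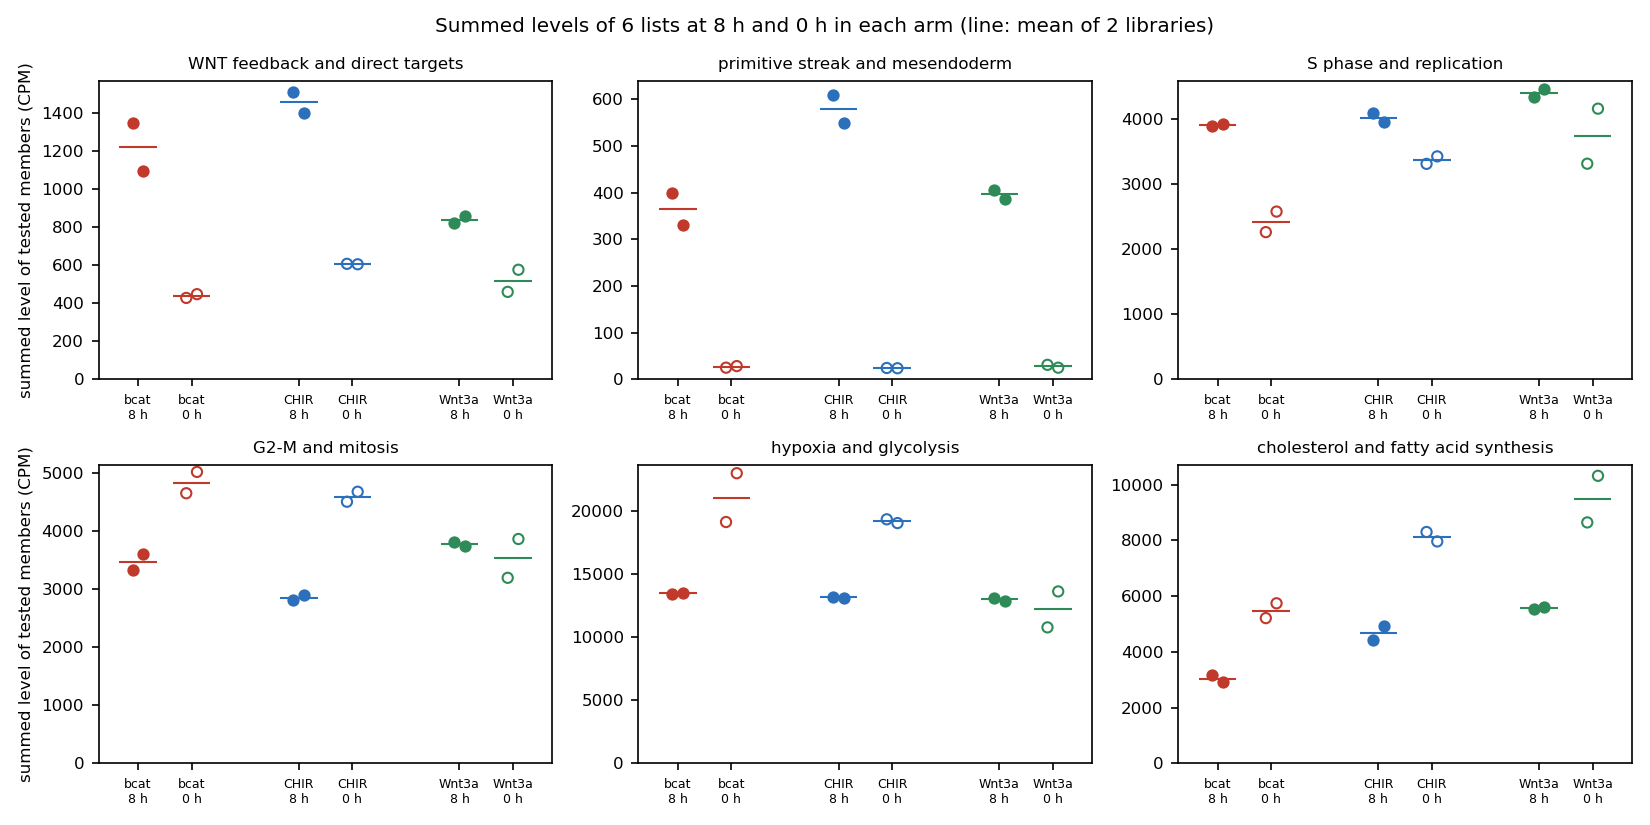
Summed level in CPM (vertical axis, starting at 0) of the tested members of 6 lists in each library of the induced line (bcat, red), the CHIR99021 arm (CHIR, blue) and the Wnt3a arm (green), filled points at 8 h, open points at 0 h, and a line at the mean of 2 libraries. The S phase sum of the induced line has the lowest 0 h points of the 3 arms, and the hypoxia and G2-M sums fall at 8 h in the induced line and with CHIR99021 while the Wnt3a points overlap in G2-M and in hypoxia.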

How the data were processed

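Total RNA of H9 cultures was sequenced after stranded library preparation, per the labels' protocols. The deposited values are estimated counts from kallisto 0.43.0, per the submitters' processing notes. Build, annotation and strand setting: not given in the sources used here, so reads of antisense partners and near-identical copies may be shared. Each deposited column held estimated counts times 1 constant (0.265 to 6.58 over the study), found as its commonest value, by which it was divided before rounding. Of the divided values of at most 20, 57.5% to 81.4% per library were whole to within 0.1. The table had 43412 symbols, 27 of them turned into dates. Identical Wnt3a 72 h columns were used once, which left 37 libraries in 19 groups.

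All 37 libraries entered 1 edgeR 4.0.16 quasi-likelihood fit (R 4.3.3, TMM scaling, filterByExpr, trended dispersions, robust), adjusted by Benjamini-Hochberg. The labels call the replicates biological without saying whether cultures were separate, so p-values measure the spread between these libraries. In simulated data for this comparison (24304 genes) the fit recovered 69 of 100 genes changed 2-fold and 92 of 100 changed 4-fold, and called 7 unchanged genes. The changed genes were drawn only from genes above a floor of counts at bcat 0 h. Recovery of genes with few or no counts there was thus not measured. SE is the log2 change divided by the root of F. List members and the genes compared were chosen with earlier results of these data known. In each direction, the 12 genes of greatest log2 change were named among those called in the full fit and with any of the 4 libraries left out, with 5 CPM or more in the higher group, no overlap between groups, and a change that moved by under 1.5-fold. CTNNB1, the WNT feedback members, up to 4 called members of each list and 3 genes per direction for each difference between arms were named too. BNIP3, CCNE1, GAPDH, HK2, ID2, ID3, LIN28A, MIXL1, MYCN, NANOG, PCNA, POU5F1, SFRP1, SLC1A5, SLC2A1, SLC7A5, SOX2 and TERF1 fell outside these rules and were named after their values were seen. A few genes chosen by these rules are not reported here. Counting intervals and floors cover counting error only. DESeq2 1.42.0, other scalings and filters, smaller fits and the loss of each library served as alternatives.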

Additional observations from a re-analysis of the deposited data

Results flagged for a closer look

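The results below were picked out because the change of a gene over 8 h in the induced line differed, in a test of the difference itself (edgeR quasi-likelihood, adjusted over 24304 genes), from its change over 8 h in another arm. Each arm was measured against its own 0 h libraries, values are log2, and no explanation was tested.

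Against CHIR99021, the genes with the largest stable differences in either direction were these. ZIC1, a zinc finger factor, had a log2 change of 10.94 in the induced line and 1.14 with CHIR99021, a difference of 9.80 ± 1.55 (SE, adjusted p = 0.000508). ZIC1 had no count at bcat 0 h, so the size of that fitted difference depends on the prior count. PNMAL2, a paraneoplastic antigen-like gene, had a log2 change of 0.21 in the induced line and -2.52 with CHIR99021, a difference of 2.73 ± 0.41 (SE, adjusted p = 0.000195). PLCH1, a phospholipase C, had a log2 change of 0.91 in the induced line and -1.80 with CHIR99021, a difference of 2.71 ± 0.26 (SE, adjusted p = 1.05e-07). Its level was 38.4 and 39.8 CPM at 8 h, against 18.2 and 22.6 CPM at 0 h in the induced line, and 8.07 and 11.1 CPM at 8 h, against 32.8 and 33.6 CPM at 0 h with CHIR99021, so it was higher at 8 h in the induced line and lower at 8 h with CHIR99021. GADD45G, a stress-response gene, had a log2 change of -1.11 in the induced line and 2.80 with CHIR99021, a difference of -3.91 ± 0.48 (SE, adjusted p = 1.18e-05). In the induced line GADD45G was at 3.45 and 2.65 CPM at 8 h, against 7.06 and 6.53 CPM at 0 h. With CHIR99021 it was at 4.13 and 4.32 CPM at 8 h, against 0.855 and 0.415 CPM at 0 h. SLC30A1, a zinc exporter, had a log2 change of -1.52 in the induced line and 1.90 with CHIR99021, a difference of -3.42 ± 0.37 (SE, adjusted p = 6.46e-06). In the induced line SLC30A1 was at 22.1 and 29.9 CPM at 8 h, against 63.2 and 82.5 CPM at 0 h. With CHIR99021 it was at 96.6 and 54.3 CPM at 8 h, against 18.8 and 21.7 CPM at 0 h. DUSP10, a MAP kinase phosphatase, had a log2 change of 0.85 in the induced line and 3.26 with CHIR99021, a difference of -2.41 ± 0.44 (SE, adjusted p = 0.00222). In the induced line DUSP10 was at 5.37 and 5.70 CPM at 8 h, against 2.94 and 3.10 CPM at 0 h. With CHIR99021 it was at 6.62 and 5.22 CPM at 8 h, against 0.603 and 0.622 CPM at 0 h. GADD45G, SLC30A1 and DUSP10 were thus all higher at 0 h in the induced line than in the CHIR99021 arm.

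Against Wnt3a, the genes with the largest stable differences in either direction were these. RPS6KL1, a ribosomal protein S6 kinase-like gene, had a log2 change of 2.98 in the induced line and 0.26 with Wnt3a, a difference of 2.72 ± 0.42 (SE, adjusted p = 0.000162). Its level was 22.2 and 25.2 CPM at 8 h, against 2.94 and 2.996 CPM at 0 h in the induced line, and 16.7 and 18 CPM at 8 h, against 11.97 and 15.9 CPM at 0 h with Wnt3a. SLC7A11, the cystine importer, had a log2 change of 2.60 in the induced line and -0.11 with Wnt3a, a difference of 2.71 ± 0.27 (SE, adjusted p = 5.13e-07). The level of SLC7A11 was 110.2 and 120.2 CPM at 8 h, against 14.1 and 21.9 CPM at 0 h in the induced line, and 56.4 and 65.7 CPM at 8 h, against 66.6 and 65.2 CPM at 0 h with Wnt3a. UHRF1, a maintenance factor of DNA methylation, had a log2 change of 2.72 in the induced line and 0.11 with Wnt3a, a difference of 2.61 ± 0.27 (SE, adjusted p = 1.01e-06). RPS6KL1, SLC7A11 and UHRF1 were thus all lower at 0 h in the induced line than in the Wnt3a arm. IER3, an immediate early gene, had a log2 change of -0.98 in the induced line and 2.03 with Wnt3a, a difference of -3.01 ± 0.45 (SE, adjusted p = 0.000249). UPK1A-AS1, an antisense RNA, had a log2 change of -2.85 in the induced line and 0.099 with Wnt3a, a difference of -2.94 ± 0.47 (SE, adjusted p = 0.000233). Its level was 1.15 and 1.08 CPM at 8 h, against 8.53 and 7.81 CPM at 0 h in the induced line, and 0.925 and 0.591 CPM at 8 h, against 0.647 and 0.690 CPM at 0 h with Wnt3a, so here the induced line was the higher one at 0 h. UPK1A-AS1 is antisense to another gene, and the strand used in counting is not given in the sources used here. APLN, the ligand apelin, had a log2 change of -2.88 in the induced line and -0.053 with Wnt3a, a difference of -2.83 ± 0.44 (SE, adjusted p = 0.000163). The level of APLN was 3.33 and 2.36 CPM at 8 h, against 19.1 and 23.8 CPM at 0 h in the induced line, and 1.57 and 1.84 CPM at 8 h, against 1.94 and 1.75 CPM at 0 h with Wnt3a, so its level before induction was higher in the induced line than in the Wnt3a arm.

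The same test was applied to genes described in the report, and a selection of the differences follows (adjusted p in brackets). CTNNB1 differed by 2.43 from CHIR99021 (3.88e-12) and by 1.91 from Wnt3a (8.82e-10). ID3 differed by 2.18 from CHIR99021 (1.05e-07) and by 1.41 from Wnt3a (0.000118). CCND1 differed by 1.5 from CHIR99021 (0.000771) and by 1.95 from Wnt3a (1.86e-05). APCDD1 differed by -1.96 from CHIR99021 (0.00191) and by -2.03 from Wnt3a (0.00100). TXNIP differed by -2.31 from CHIR99021 (0.00018) and by -2.31 from Wnt3a (0.000162). UHRF1 differed by 1.67 from CHIR99021 (0.000615). SP8 differed by 2.02 from CHIR99021 (0.000242). MYCN differed by 1.65 from CHIR99021 (2.09e-06) and by 1.01 from Wnt3a (0.00108). L1TD1 differed by 1.5 from CHIR99021 (0.00177) and by 1.34 from Wnt3a (0.00237). LFNG differed by -1.5 from CHIR99021 (0.00292) and by -1.91 from Wnt3a (0.000162).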

How the results depend on the processing

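The comparison gave 4549 calls. It gave 2921 when only its 4 libraries were fitted and 2766 at an adjusted p below 0.01, and leaving out 1 library at a time gave 2926 (without bcat 0 h replicate 2) to 3561. The difference from CHIR99021 (656 genes) went to 336 without the libraries in doubt for ribosomal RNA or depth (bcat 0 h replicate 1, bcat 24 h replicate 1, bcat 48 h replicate 2 and Wnt3a 0 h replicate 1), and to 239 to 581 with 1 library left out. The difference from Wnt3a (1360 genes) went to 897 without those libraries, and to 663 to 1309 with 1 left out. The cause was not tested, but each of these fits has fewer samples or a stricter threshold. Calls among the lists (430) moved by less than 1.5 times in every setting run. DESeq2 called 4956 genes and the deposited values without rescaling 5538. Higher genes made up 57.2% of the calls, 49.2% with DESeq2 size factors and 66.4% without the filter on low counts. Equal replicate numbers did not pair the libraries of the bcat arm, with correlations of their deviations from -0.0519 to 0.0413, and the replicate block, fitted in that arm alone, gave 3924 calls, against 4134 without it. NANOG and LIN28A, neither called, changed sign: NANOG ranged from -0.41 to 0.14 (0.098 without bcat 0 h replicate 2) and LIN28A from -0.11 to 0.045 (0.043 without bcat 8 h replicate 2) with 1 library left out, and LIN28A was 0.048 without the filter. Of 1528 values of 102 named results under the alternatives, 1507 kept their direction and side of the threshold, 12 lost the call, 4 gained it (CDX1 without the filter, with unscaled values and with the default dispersion, DKK1 with unscaled values) and 5 reversed; of 420 values of 30 differences between arms, 419 kept both and 1 lost the call. Genes named by the rule of stability were chosen for keeping their calls with 1 library left out. For them those values could not change side, so these tallies overstate the stability of the results. With 2 libraries a group and 4.44 M counts in the shallowest, a gene below about 1 CPM at 0 h rests on a few counts, so absence before induction was not shown, and 91 genes called higher had no count at 0 h.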

Other observations

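Of 29 tested FGF ligand and ERK feedback genes 7 were higher and 9 lower (6 and 5 without bcat 8 h replicate 1, 5 and 4 without bcat 0 h replicate 2), against 10.7% higher and 8.01% lower over all tested genes. FGF19, an FGF ligand, was at 10.3 and 8.06 CPM at 8 h, against 1.76 and 2.46 CPM at 0 h, a log2 change of 2.05 ± 0.31 (SE), adjusted p = 1.25e-05. DUSP6, a phosphatase that switches off ERK, was at 10.6 and 15.9 CPM at 8 h, against 26.5 and 49.9 CPM at 0 h, a log2 change of -1.65 ± 0.27 (SE), adjusted p = 0.000122, and -1.05 without bcat 0 h replicate 2. The FGF19 libraries at 8 h were thus above, and those of DUSP6 below, both 0 h libraries. EGR1, an immediate early factor, was at 23.2 and 11.4 CPM at 8 h, against 1.76 and 3.32 CPM at 0 h, a log2 change of 2.66 ± 0.36 (SE), adjusted p = 4.03e-06, with 2.02 without bcat 8 h replicate 1 and 3.33 without bcat 0 h replicate 2. Of 30 immediate early genes, 5 were higher and 3 lower, with 2 and 2 without bcat 8 h replicate 1 and 3 and 2 without bcat 0 h replicate 1, so the list was near the shares of all genes.

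Of 20 tested ephrins and Eph receptors 1 was higher and 7 were lower (1 and 3 without bcat 0 h replicate 2). Over all tested genes 10.7% were higher and 8.01% lower. EPHA3, an Eph receptor, was at 0.205 and 0.393 CPM at 8 h, against 5.59 and 5.78 CPM at 0 h. Its log2 change was -4.43 ± 0.60 (SE), adjusted p = 2.42e-06, with -3.84 without bcat 8 h replicate 1. SGK1, a kinase downstream of PI3K signalling, was at 7.91 and 14.1 CPM at 8 h, against 41.5 and 38.7 CPM at 0 h, a log2 change of -1.91 ± 0.28 (SE), adjusted p = 9.35e-06. In both genes every 8 h library was below every 0 h library. HIST1H1A, a replication-dependent linker histone gene, was at 7.55 and 10.7 CPM at 8 h, against 1.47 and 1.5 CPM at 0 h, a log2 change of 2.59 ± 0.35 (SE), adjusted p = 2.86e-06, while of 34 tested replication-dependent histone genes 4 were higher and 1 lower, a share near that of all genes, with 2 higher without bcat 8 h replicate 2 or bcat 0 h replicate 1 and 1 without bcat 0 h replicate 2.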
